A study of Mus musculus with 384 samples.

Results

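Hybrid cells, a sorted population found in the mouse mammary gland after its luminal cells had been ablated, were compared with basal cells of wild-type glands by Smart-seq2, which reads the full-length messenger RNA of single cells without molecular identifiers. Members were the single-cell wells labelled as hybrid cells after doxycycline and the single-cell wells labelled as wild-type basal cells, kept at a minimum of 100000 gene reads and 1000 detected genes and a mitochondrial share of no more than 20%. This kept 85 of 92 hybrid wells and 44 of 50 wild-type basal wells, together 129 of the 319 kept cells and of the 384 samples of the series. The strain recorded for every group, the wild-type one included, is K8rtta/TetO-DTA/K5CreER/Rosa-Tomato on a mixed background. In such mice doxycycline switches on diphtheria toxin in cells with the luminal keratin 8 promoter, and the keratin 5 promoter drives an inducible Cre that turns on the Tomato reporter in basal cells and their descendants. Ablated mice received 0.2 mg doxycycline into the milk ducts 1 week before sorting, and for the wild-type wells the labels record no injection. Cells of all groups were sorted as Tomato+ with CD29 and EpCAM and without CD45, CD31 and CD140a, and the labels do not describe the gate that separated hybrid from basal cells or give the age of the mice. The labels name no animal, so each group was treated as 1 sample, every difference below has no replicate check, and no test across cells was made. Ablation, injection, doxycycline, gate and animal cannot be told apart in the comparison.

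The mammary duct is a bilayer in which an outer layer of basal, or myoepithelial, cells surrounds an inner layer of luminal cells. Basal cells carry keratins 5, 14 and 17, contract with smooth muscle actin and myosin, and rest on the basement membrane, while luminal cells carry keratins 7, 8, 18 and 19, seal the lumen with tight junctions and comprise hormone-sensing cells and progenitors of the milk-secreting alveoli. In the adult gland at rest each layer is maintained by its own progenitors, and the study asked what the intermediate population that appears after luminal loss expresses.

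Markers of the labelled identity were read first. Acta2, smooth muscle actin, was detected in 100% of wild-type basal cells and in 98.8% of hybrid cells, where detection means at least 5 reads after every cell had been thinned to 100000 reads. Krt14 was detected in 88.6% of wild-type basal cells (39 of 44, 95% Clopper-Pearson interval 75.4 to 96.2%) and in 97.6% of hybrid cells. The groups differed in complexity: a wild-type basal cell held a median of 2210 genes at 100000 reads (1633 to 2878) and a hybrid cell a median of 4648 (2473 to 6797), and 3 of the 85 hybrid cells did not exceed the richest wild-type basal cell. The same median was 2697 in basal cells after ablation, 4316.5 in luminal cells after ablation and 2917 in wild-type luminal cells. Of the 11106 measured genes 90.5% were detected in a larger share of hybrid cells, and the median difference over all measured genes was 10.7 points. Genes at nearly equal level in both groups were detected in a median of 9.09% of wild-type basal and 21.2% of hybrid cells. Depth itself was alike, with 399036 to 2448806 reads per wild-type basal cell (median 978494) and 118310 to 2414194 per hybrid cell (median 1078728). Wild-type basal wells lay in plate lines C to E and hybrid wells in lines M to P, so group and plate position cannot be told apart, and wells that received a pair of cells were not searched for.

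Levels are given as CPM, the gene reads of all kept cells in a group scaled to a common total, with exact Poisson 95% intervals. These cover counting error only and are too narrow even for that, since amplified copies of 1 molecule count as separate reads. A ratio is the log2 of the hybrid level over the wild-type basal level after 10 CPM was added to each, which understates the ratio of low genes. Of the 11106 genes that averaged 5 CPM or more across the 5 single-cell groups, 665 (5.99%) were at least 4-fold higher in hybrid cells and 177 (1.59%) at least 4-fold lower, so that 79% of these calls were higher ones. That split was 62.9% higher with trimmed-mean (TMM) scaling, 54.2% with median-of-ratios scaling and 95.1% when the top cell of every gene was left out of each group. The median ratio over all measured genes was 0.25, and 0.03 and -0.06 under the other 2 scalings, so every ratio below is to be read against that shift. Counts of list members past 4-fold are likewise to be read against the 5.99% and 1.59% of all measured genes. The 15 genes with the largest ratios by the naming rule included Wfdc18, Cldn3, Csn3, Krt19, Areg, Cldn7, Cldn4, Clu, Krt7, Cd14, Lgals3, Fcgbp, Anxa3 and Ctsh, with ratios from 6.83 down to 4.20. The rule also asks for detection in a share of cells at least 20 points larger than in the other group, which 2689 genes met in hybrid cells and 10 in wild-type basal cells.

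**Figure D1:**
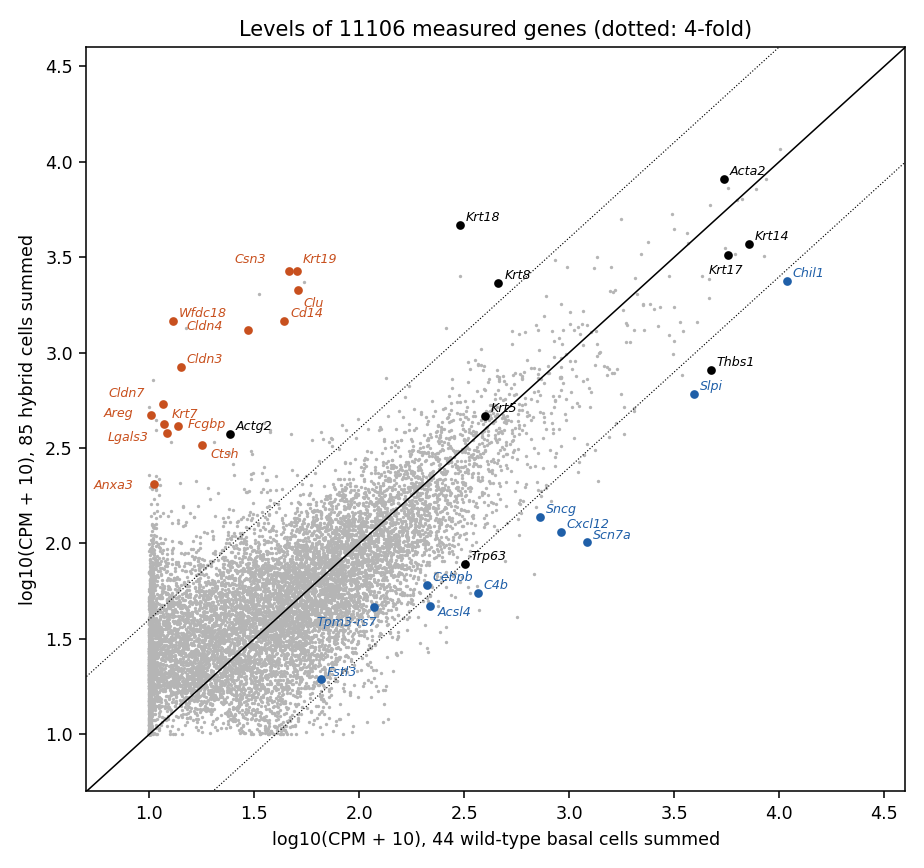
Level of each of 11106 measured genes in 85 hybrid cells (y axis) against 44 wild-type basal cells (x axis), both as log10(CPM + 10) of summed reads; the solid line marks equal levels and dotted lines 4-fold differences, with 14 of the 15 highest-ratio genes in orange, the 10 named lower genes in blue and reference genes in black. Krt18 and Krt8 lie above the upper dotted line, while Krt14, Krt17, Krt5 and Acta2 lie between the dotted lines.

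Of the 6 measured basal keratins 5 were less than 4-fold apart between the groups, and Krt15 was higher in hybrid cells. Krt14 ranged from 5.81 to 29142 CPM over wild-type basal cells with a median of 3749, and from 17.7 to 17519 CPM over hybrid cells with a median of 2012. The ranges overlapped fully, and the summed level was 7154 CPM (7129 to 7178) in wild-type basal and 3714 CPM (3702 to 3726) in hybrid cells, a ratio of -0.94. Krt17, another type I keratin of basal epithelium, had medians of 3942 and 966 CPM and a ratio of -0.81, and 6 hybrid cells lay below every wild-type basal cell. Krt5, the type II keratin that pairs with Krt14, was at 388 CPM in wild-type basal and 453 CPM in hybrid cells, a ratio of 0.22 that became -0.22 with median-of-ratios scaling. Krt15, a keratin of basal progenitors in stratified epithelia, had a median of 1.62 CPM per wild-type basal cell (0 to 1852) and 142 CPM per hybrid cell (0 to 8329). It was detected in 6.82% of wild-type basal and 57.6% of hybrid cells, with a ratio of 2.46. Of the 7 listed basal keratins 6 were measured, 1 was at least 4-fold higher and 0 lower, and Krt6b had no read in wild-type basal cells. The median ratio was 0.26 against 0.25 over all genes. It was -1.37 in the libraries of many cells described last, where 2 were at least 4-fold lower.

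The contractile apparatus of the myoepithelium was read in both groups, and all 17 listed genes were measured. Of these 1 was at least 4-fold higher and 0 lower, against 5.99% and 1.59% of all measured genes. The median ratio was -0.04. Acta2 ranged from 57.6 to 19897 CPM over wild-type basal cells (median 3150) and from 39.9 to 29035 CPM over hybrid cells (median 5612). The 2 distributions overlapped, 7 hybrid cells lay above and 1 below all wild-type basal cells, and the ratio was 0.58. Myl9, Tpm1, Tpm2 and Mylk, which encode the myosin light chain, tropomyosins and the kinase that triggers contraction, had ratios of 0.49, 0.43, -0.38 and -0.16. Actg2, the enteric smooth muscle actin, was the exception, with a median of 1.08 CPM per wild-type basal cell (0 to 434) against 158 CPM per hybrid cell (0 to 2759). Its ratio was 3.95, it was detected in 6.82% of wild-type basal cells and in 51 of 85 hybrid cells, and its level in basal cells after ablation was 350.8 CPM beside 364.7 CPM in hybrid cells. At the other end stood Oxtr, the oxytocin receptor through which suckling triggers contraction (569.8 and 150.4 CPM, ratio -1.85), and Smtn, the smooth muscle protein smoothelin (ratio -1.58).

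Basal regulators gave a mixed picture, with 11 of 18 listed transcription factors measured, 0 at least 4-fold higher, 1 lower and a median ratio of -0.29. Trp63, the p53-family factor required for basal identity, was the lower one, at 308.7 CPM in wild-type basal and 67.76 CPM in hybrid cells, a ratio of -2.04. That difference came from few cells: the median was 3.44 CPM per wild-type basal cell (0 to 5866) and 8.45 CPM per hybrid cell (0 to 1152), Trp63 was detected in 27.3% and 36.5% of cells, and without the top cell of each group the ratio was -1.68. Id4, a repressor marking basal cells, and Snai2, a factor of basal progenitors, had ratios of -0.43 and -0.58. Among 23 basement membrane and adhesion genes 22 were measured, 0 were at least 4-fold higher, 1 was lower and the median ratio was -0.14, which became 0.10 without the top cell. Sparc, a collagen-binding matrix protein, was detected in 100% of hybrid cells and had a median of 2709 CPM there (80.4 to 11494) against 979 CPM (11.3 to 5840) in wild-type basal cells. Col4a2, a chain of basement membrane collagen, had a ratio of 1.89, while Itga3 and Dst, which anchor basal cells to that membrane, had ratios of -1.65 and -1.39. Thbs1, the matrix glycoprotein thrombospondin 1, ranged from 12.5 to 42424 CPM in wild-type basal cells (median 2270) and from 1.25 to 8563 CPM in hybrid cells (median 397), with 11 hybrid cells below every wild-type basal cell and a ratio of -2.53.

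Luminal keratins were higher in hybrid cells, and all 4 were measured. Krt18 ranged from 2.04 to 2891 CPM over wild-type basal cells with a median of 39.4, and from 39 to 12439 CPM over hybrid cells with a median of 3652. The ranges overlapped in part: 50 of 85 hybrid cells lay above the highest wild-type basal cell and 35 did not, while 22 of 44 wild-type basal cells lay above the lowest hybrid cell. The summed level was 290.9 CPM (286.0 to 295.8) against 4644 CPM (4630 to 4658), a ratio of 3.95. Krt8, its obligate partner, was at 449.6 and 2300 CPM, with a ratio of 2.33 and 7 hybrid cells above all wild-type basal cells. Krt19 had a median of 6.65 CPM per wild-type basal cell (0.545 to 846) and 1309 CPM per hybrid cell (8.98 to 13130), and was detected in 9.09% and 84.7% of cells. Krt7 had a median of 1.12 CPM per wild-type basal cell (0 to 15.5) and 25.2 CPM per hybrid cell (0 to 3102), and was detected in 0 of 44 wild-type basal cells (Clopper-Pearson upper bound 8.04%, or 6.82% if 3 cells are taken as the limit of a count of 0) and in 45.9% of hybrid cells. All 4 luminal keratins were at least 4-fold higher in hybrid cells, with a median ratio of 4.56. Wild-type luminal cells held Krt18 at 8343, Krt8 at 3746, Krt19 at 6157 and Krt7 at 857.6 CPM, each above the hybrid level.

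**Figure D2:**
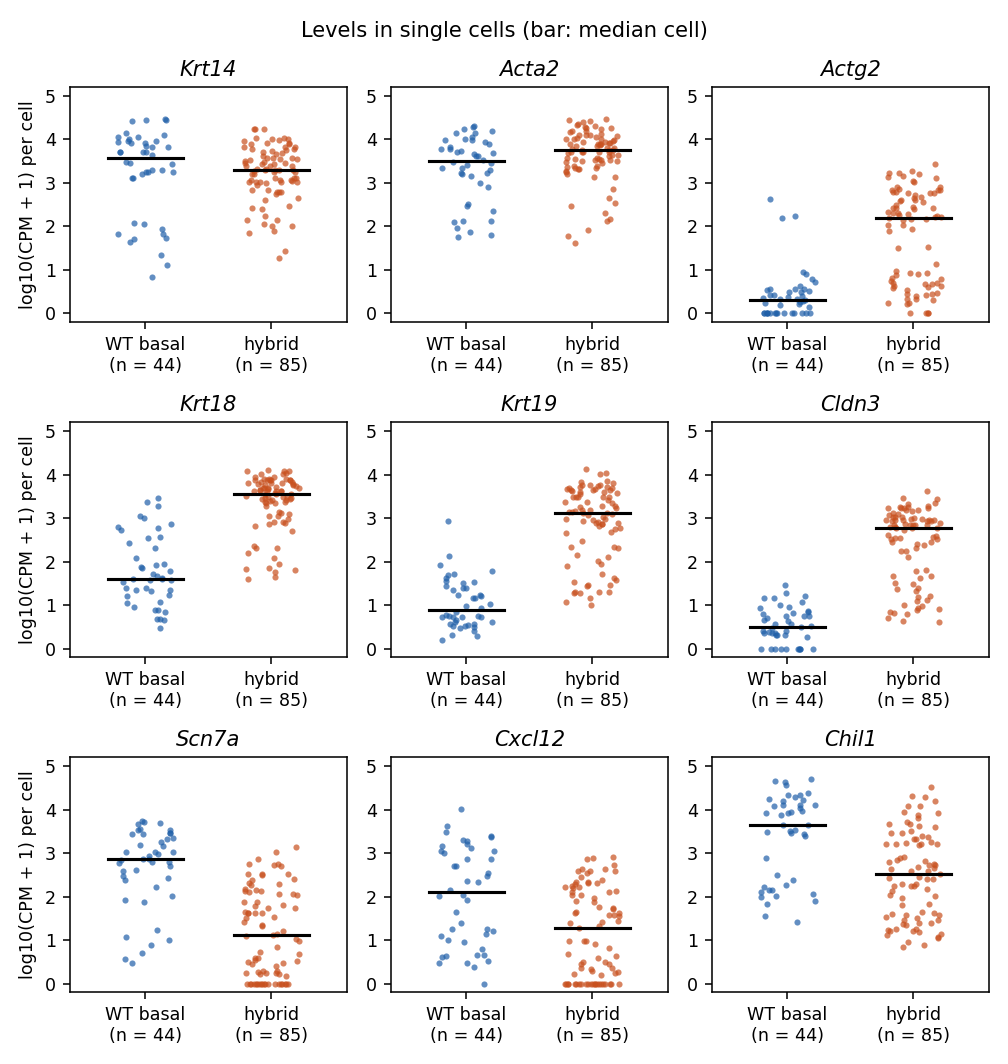
Level in every kept cell as log10(CPM + 1) for 9 genes, with wild-type basal cells (44) on the left and hybrid cells (85) on the right of each panel and a bar at the median cell. Krt14 and Acta2 overlap between the groups, Actg2, Krt18, Krt19 and Cldn3 lie higher in most hybrid cells, and Scn7a, Cxcl12 and Chil1 lie lower in most hybrid cells.

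Tight junction and apical genes, which seal the lumen and polarise luminal cells, were higher as a group: 15 of 23 members, all measured, were at least 4-fold higher in hybrid cells, 0 lower, and the median ratio was 2.29. Promoters of 3 of these higher genes are shown as examples of the motif matches counted here, from the RefSeq table on GRCm38.p6, 250 bases before to 50 bases after the gene start, read 5′ to 3′ on the coding strand, with capitals marking every match to the motifs searched. The motifs were AACCNGTT and the stricter AACCGGTT of the grainyhead-like factors (Grhl) and CAGGAAG of Ets factors. TGACTCA of AP-1 and the CArG box of serum response factor were also searched, all on both strands. Rab25 (chr3:88548230-88548529, minus strand) holds a Grhl match starting 102 bases before the gene start and an Ets match, Muc1 (chr3:89228806-89229105, plus strand) a Grhl match 180 bases before it, and Cldn4 (chr5:134946885-134947184, minus strand) an AP-1 match at 240 and another at 158 bases before it.
Rab25: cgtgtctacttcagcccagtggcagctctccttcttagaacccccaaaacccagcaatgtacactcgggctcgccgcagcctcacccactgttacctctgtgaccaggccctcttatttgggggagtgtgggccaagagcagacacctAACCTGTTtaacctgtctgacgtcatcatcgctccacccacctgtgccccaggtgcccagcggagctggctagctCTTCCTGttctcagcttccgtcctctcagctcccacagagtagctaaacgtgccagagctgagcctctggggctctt
Muc1: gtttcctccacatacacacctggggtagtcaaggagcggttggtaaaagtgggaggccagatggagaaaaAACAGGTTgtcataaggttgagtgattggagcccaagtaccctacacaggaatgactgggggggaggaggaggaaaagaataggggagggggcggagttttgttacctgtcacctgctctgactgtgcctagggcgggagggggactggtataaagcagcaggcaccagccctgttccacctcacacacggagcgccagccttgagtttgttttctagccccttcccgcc
Cldn4: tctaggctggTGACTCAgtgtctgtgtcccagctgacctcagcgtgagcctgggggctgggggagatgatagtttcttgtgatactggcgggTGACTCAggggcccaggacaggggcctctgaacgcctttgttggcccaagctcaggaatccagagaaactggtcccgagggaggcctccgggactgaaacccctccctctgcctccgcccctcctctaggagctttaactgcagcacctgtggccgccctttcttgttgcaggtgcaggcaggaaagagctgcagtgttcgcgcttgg
Of the 23 genes 18 had an entry, with 24 promoters. AACCNGTT was held by 20.8% of these, 5 promoters of 4 genes (Cgn, Muc1, Prom1 and Rab25), against 2.09% of all 32851 promoters. The stricter AACCGGTT was held by 0 of the 24 and by 0.146% of all. TGACTCA was held by 20.8% (Cldn4, F11r, Lsr, Prom1 and Spint1) against 5.2%, and CAGGAAG by 6 of the 24 against 13.3% of all. Of these genes Cgn (1.53), Prom1 (1.80), Lsr (1.17), F11r and Spint1 were not 4-fold higher. Over all 664 promoters of genes at least 4-fold higher the shares for AACCNGTT, TGACTCA and CAGGAAG were 2.11%, 5.27% and 14.5%. A match is a description of the sequence and not a bound site.

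Among the junction genes the claudins, which form the paracellular seal, gave the largest ratios. Cldn3 ranged from 0 to 27.5 CPM over wild-type basal cells (median 2.20) and from 2.99 to 4181 CPM over hybrid cells (median 593). In 67 of 85 hybrid cells the level exceeded that of every wild-type basal cell, and the ratio was 5.90. Such counts are given, here and for other genes, without a count over all measured genes. Of those genes 90.5% were detected in a larger share of hybrid cells. Cldn7 (0 to 10.0 CPM, median 1.05, against 0 to 1894 CPM, median 331) had 65 hybrid cells above all wild-type basal cells and a ratio of 5.52. Cldn4 had a median of 5.78 CPM (0 to 382) in wild-type basal and 316 CPM (3.31 to 16186) in hybrid cells, with 38 hybrid cells above all others and a ratio of 5.48. Cldn1 (3.78), Ocln, the junction protein occludin (3.22), Tjp3, a junction scaffold (2.61), and Crb3, an apical polarity protein (2.36), were also at least 4-fold higher. So were Muc1, an apical mucin (3.64), Rab25, a recycling GTPase of apical membrane (3.37), and Cdh1, E-cadherin (62.99 and 346.3 CPM, ratio 2.29). Epcam, the adhesion molecule used in the sort, was at 765.8 CPM in wild-type basal and 1958 CPM in hybrid cells, with no hybrid cell above the highest wild-type basal cell and a ratio of 1.34. The proteinase inhibitor Spint1 and the adhesion protein F11r had ratios of -0.18 and 0.14.

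**Figure D3:**
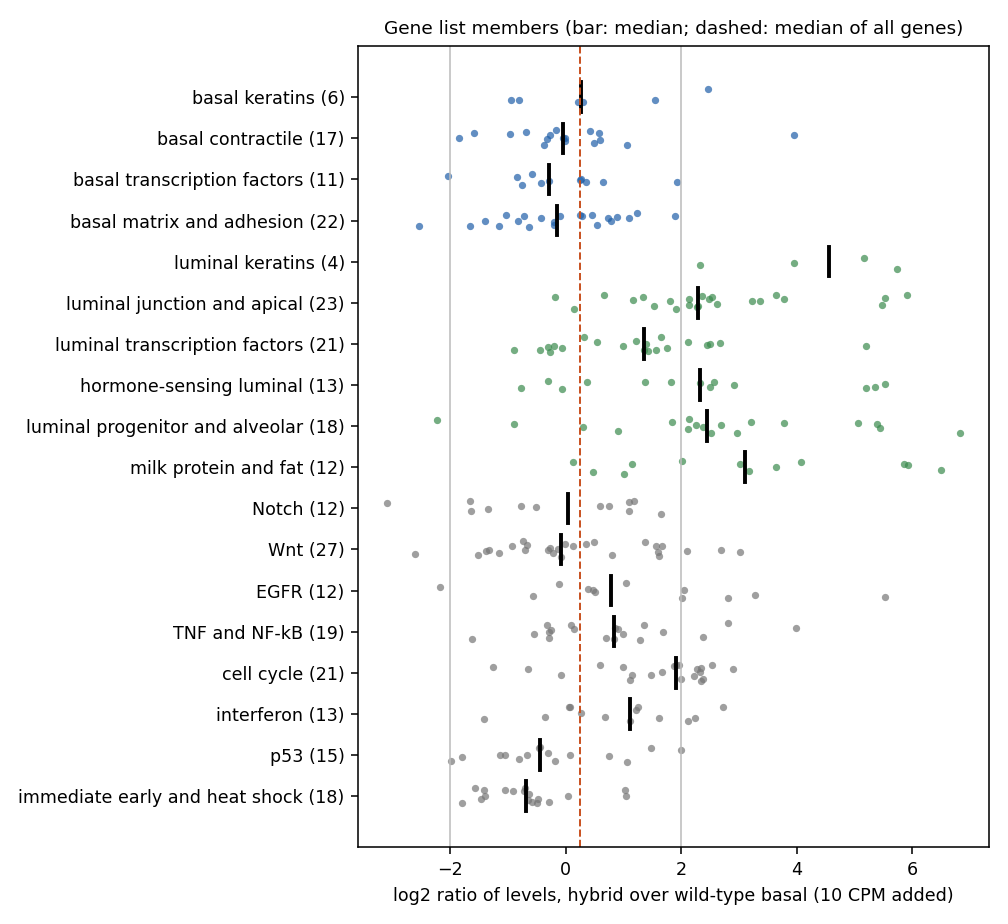
Log2 ratio of hybrid over wild-type basal level (10 CPM added) for each measured member of 18 gene lists, with the number of measured members in brackets, a black bar at the list median, a dashed line at the median of all genes (0.25) and grey lines at 4-fold. Basal lists (blue) centre between -0.29 and 0.26, and luminal lists (green) between 1.36 and 4.56.

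Luminal transcription factors were higher in part: 21 of 22 were measured, 5 were at least 4-fold higher, 0 lower, and the median ratio was 1.36. Elf5, the Ets factor that drives alveolar fate, was at 0.28 CPM in wild-type basal and 34.35 CPM in hybrid cells, and was detected in 0 of 44 and in 22.4% of cells (14 to 32.7%). Ehf and Elf3, related Ets factors of epithelium, had ratios of 2.67 and 2.44, and Foxa1, a cofactor of the estrogen receptor, 2.50. The grainyhead-like factors Grhl1 and Grhl2, whose motif was searched above, had ratios of 1.75 and 1.00. Cited1, a coactivator in hormone-sensing cells, had the largest ratio of the list, 5.19. Gata3, a luminal master regulator also read in wild-type basal cells, and Esr1, the estrogen receptor, had ratios of -0.27 and -0.30 and were read at 356.6 and 86.95 CPM in wild-type basal cells.

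Hormone-sensing and alveolar genes were both higher in part in hybrid cells, and at least 3 of the 19 progenitor and alveolar genes were already detected in 34 of 44 wild-type basal cells, against 83 of 85 hybrid cells. Of 14 hormone-sensing genes 13 were measured and 7 were at least 4-fold higher, with a median ratio of 2.32. Areg, the EGF-family ligand that relays estrogen signals, ranged from 0 to 3.88 CPM over wild-type basal cells, 41 of which held no read, and from 0 to 5319 CPM over hybrid cells (median 6.43). The ratio was 5.53, and 59 hybrid cells lay above all wild-type basal cells, although detection at 5 reads was reached in 29.4% of hybrid cells. Calca, which encodes calcitonin and CGRP, and Prlr, the prolactin receptor, had ratios of 5.36 and 2.56. Pgr, the progesterone receptor, and Cd1d1 had ratios of -0.07 and -0.77. Of 19 luminal progenitor and alveolar genes 18 were measured, 13 were at least 4-fold higher, 1 lower, and the median ratio was 2.45. Wfdc18, a secreted protein of alveolar cells, ranged from 0 to 18.9 CPM over wild-type basal cells (median 1.92) and from 5.12 to 26322 CPM over hybrid cells (median 407), and 67 hybrid cells lay above all wild-type basal cells. Kit, the receptor tyrosine kinase of luminal progenitors, had 0 to 3.88 CPM in wild-type basal and 0 to 1243 CPM in hybrid cells (median 11.4), a ratio of 3.78. Cd14, a lipopolysaccharide co-receptor of progenitors, had a median of 3.54 CPM (0 to 1999) and 532 CPM (3.14 to 8880). Aldh1a3, a retinal dehydrogenase of progenitors, had a ratio of 2.51. The tetraspanin Tspan8 was the lower one, with a ratio of -2.22, and Lcn2, an iron-binding defence protein, was at 6128 CPM in wild-type basal and 3283 CPM in hybrid cells.

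Of 17 milk protein and milk fat genes 12 were measured, 8 were at least 4-fold higher and 0 lower, with a median ratio of 3.10. Csn2, Csn1s1 and Csn3, the caseins, had ratios of 6.5, 5.92 and 5.86. Btn1a1 and Muc15, proteins of the milk fat globule membrane, had ratios of 3.64 and 4.07, while Xdh and Plin2, which serve milk fat secretion and storage, had 1.14 and 0.48. Csn3 ranged from 0 to 166 CPM over wild-type basal cells (median 19.9) and from 2.52 to 78917 CPM over hybrid cells (median 114, upper quartile 2049), and 39 hybrid cells lay above all wild-type basal cells. Negative control wells held a mean of 114 reads of Csn3 per well and wild-type basal cells 37.8 per cell. No more reads than the mean negative well were found in 41 of 44 wild-type basal and in 43 of 85 hybrid cells, so Csn3 in these cells was at or below the level of wells without a cell. The mean per wild-type basal cell was also at or below that of negative wells for 9 of the 15 highest-ratio genes and for 231 (34.7%) of all 665, against 7.53% of all measured genes. Subtracting negative-well reads from every cell, a step added after seeing the data, left all 665 genes at least 4-fold higher. The same amount taken from each cell weighs more on the lower group. This step could therefore hardly lower a ratio and does not test the part of the background.

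Areg and Kit, a pair chosen after values were seen, were mostly detected in different hybrid cells. Of the lists they belong to, at least 3 hormone-sensing genes were detected in 28 hybrid cells and at least 3 progenitor and alveolar genes in 83 of 85. Both were reached in 27 cells. Since nearly all hybrid cells reached the second count, this overlap cannot show whether the 2 lists share cells. Areg was detected in 25 hybrid cells and Kit in 34, and both in 2. Cited1 was detected in 21 hybrid cells, of which 18 also had Areg and 3 Kit. All 34 hybrid cells with Kit had Cd14, which was detected in 60 of the 85 hybrid cells. In luminal cells after ablation Areg was detected in 32 cells, Kit in 25 and both in 6 of 76, and Cited1 and Kit were both detected in 7. In wild-type luminal cells Areg was detected in 3 cells, too few to set beside the 20 with Kit.

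Basal and luminal genes were often detected together in wells labelled as single hybrid cells. Krt14 and Krt18 were both detected in 82 of 85 hybrid cells (96.5%, 90 to 99.3%) and in 18 of 44 wild-type basal cells (40.9%, 26.3 to 56.8%). The share was 49.3% in basal and 63.2% in luminal cells after ablation and 6.98% in wild-type luminal cells. It depended on the detection minimum: at 1 read it was 100% of hybrid and 79.5% of wild-type basal cells, at 20 reads 77.6% and 20.5%, and without thinning 100% and 95.5%. Acta2 and Krt19 were both detected in 71 hybrid cells (83.5%, 73.9 to 90.7%) and in 4 wild-type basal cells (9.09%, 2.53 to 21.7%). After ablation that share was 5.63% in basal and 28.9% in luminal cells. Krt5 and Krt8 were both detected in 68.2% of hybrid (57.2 to 77.9%) and 38.6% of wild-type basal cells (24.4 to 54.5%). After ablation it was 47.9% in basal (35.9 to 60.1%, overlapping the hybrid interval) and 23.7% in luminal cells. Trp63 and Elf5, the basal and alveolar regulators, a pair chosen after values were seen, were both detected in 9 hybrid cells (10.6%) and in 0 of 44 wild-type basal cells. Wild-type basal cells detect fewer genes at equal depth, and the part of this in the differences was not tested. The part of wells that received a pair of cells, and of reads as found in wells without a cell, was not tested either.

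**Figure D4:**
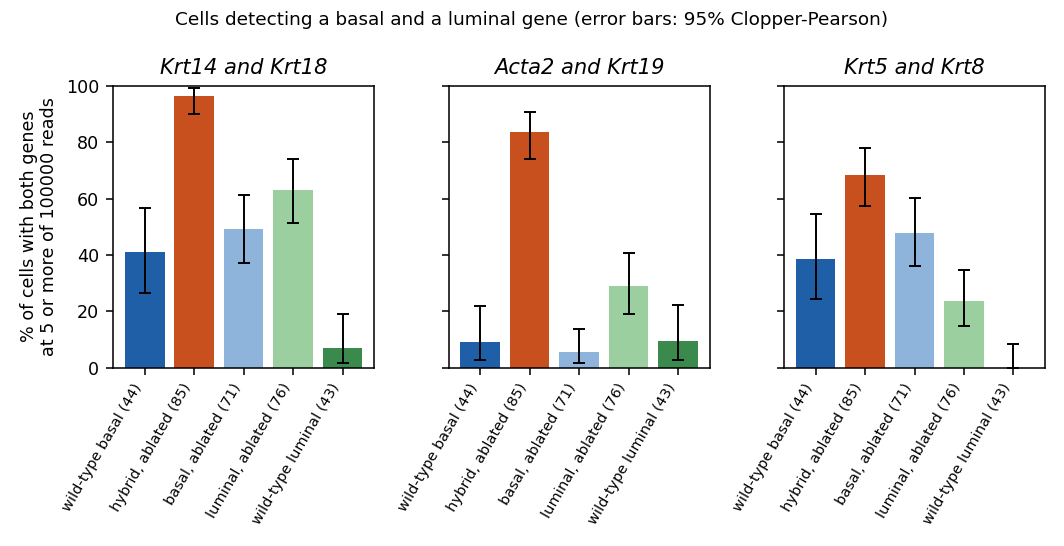
Percent of cells in each of the 5 single-cell groups (number of cells in brackets) in which both genes of a pair reached 5 reads after thinning to 100000 reads, with 95% Clopper-Pearson intervals. The hybrid bar is the highest in each panel, at 96.5%, 83.5% and 68.2%.

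A score per cell, the mean log2(CPM + 10) over 34 basal or 48 luminal genes, placed each cell on both axes. Wild-type basal cells had basal scores from 4.31 to 7.6 (median 5.98) and hybrid cells from 4.37 to 8.56 (median 6.61). The median was 7.04 in basal cells after ablation. Of the 85 hybrid cells 74 lay within the wild-type basal range, 11 above it and 0 below it. Luminal scores ran from 3.54 to 4.82 (median 4.26) in wild-type basal cells and from 4.16 to 7.35 (median 5.99) in hybrid cells, and 73 hybrid cells lay above every wild-type basal cell. In all, 67 hybrid cells (78.8%) were within the wild-type basal range on the basal axis and above it on the luminal axis, and 64 of all hybrid cells combined a wild-type basal score with a luminal score inside the wild-type luminal range (5.14 to 7.5, median 5.97). A further 7 hybrid cells lay within the wild-type basal range on both axes. Luminal cells after ablation had basal scores from 3.92 to 6.15 (median 4.75) and luminal scores from 4.66 to 7.51 (median 6.51). Their lower quartiles, 4.46 and 6.02, lay above the lowest basal and the highest luminal score of wild-type basal cells. The combination was therefore not particular to hybrid cells. A hybrid cell detected a median of 19 of the basal and 23 of the luminal genes, and a wild-type basal cell 13.5 and 6. Such scores tend to rise with the number of genes detected, at equal depth a median of 4648 in hybrid and 2210 in wild-type basal cells. The part of this in the scores was not tested.

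**Figure D5:**
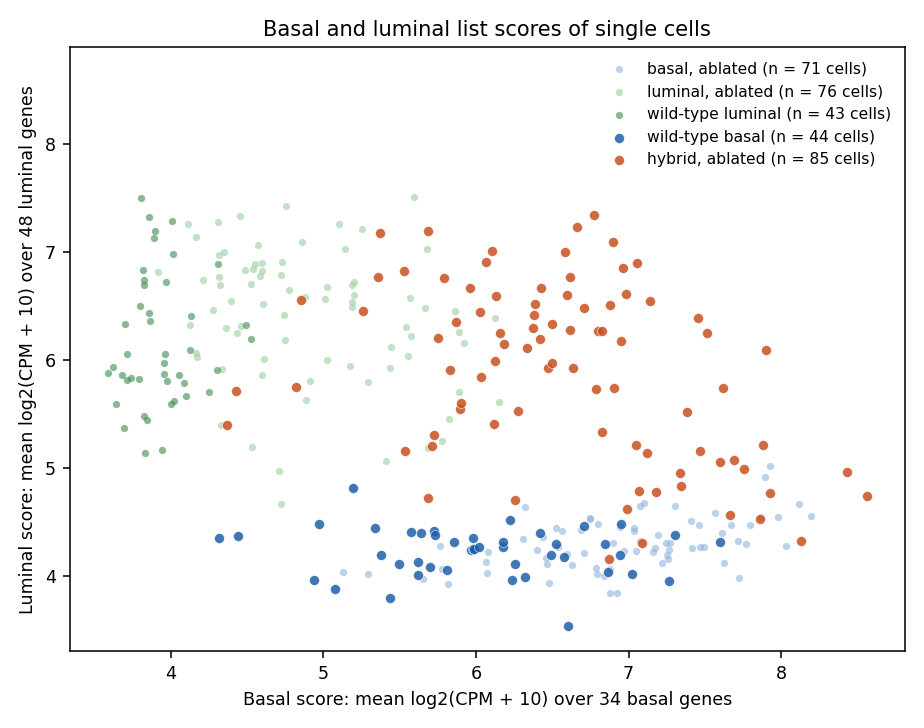
Basal score (x axis) and luminal score (y axis) of each kept cell, as mean log2(CPM + 10) over 34 basal and 48 luminal genes, coloured by group. Hybrid cells spread over the basal axis of wild-type basal cells (4.31 to 7.6) and reach luminal scores of 7.35, where the highest wild-type basal cell is at 4.82.

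Fewer genes were lower in hybrid cells. Scn7a, an atypical sodium channel, ranged from 1.94 to 5458 CPM over wild-type basal cells (median 725) and from 0 to 1406 CPM over hybrid cells (median 12.3). It was detected in 81.8% and 41.2% of cells, 31 hybrid cells lay below every wild-type basal cell, and the ratio was -3.59. Cxcl12, the ligand of the chemokine receptor Cxcr4, had medians of 125 CPM (0 to 10155) and 18.2 CPM (0 to 806) and a ratio of -3.0. C4b, a complement component, had medians of 73 and 1.63 CPM and a ratio of -2.74. Slpi, a secreted antiprotease, had a median of 1162 CPM (6.85 to 20778) in wild-type basal and 17.9 CPM (1.00 to 37902) in hybrid cells, with 23 hybrid cells below and 1 above all wild-type basal cells. Chil1, a secreted chitinase-like protein, had medians of 4402 CPM (25.8 to 51012) and 331 CPM (5.99 to 33669) and a ratio of -2.20. The other genes named by the rule were Sncg (-2.40), Acsl4 (-2.21), Cebpb (-1.80), Fstl3 (-1.76) and Tpm3-rs7 (-1.34), the last of which has a near-identical copy whose reads counting may split. Basal cells after ablation held Scn7a at 231.1, Cxcl12 at 481.4, Slpi at 1489 and Chil1 at 3628 CPM, each between the hybrid and the wild-type basal level. In 88 of the 177 genes at least 4-fold lower (49.7%) a single wild-type basal cell held over 50% of the group's reads, a share like the 50.9% of all measured genes. Without the top cell of each group 54 of the 177 were still at least 4-fold lower and 161 were below 0.

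Ligands and receptors of pathways that link the layers differed gene by gene, where 5.99% of all measured genes were at least 4-fold higher and 1.59% lower. Of 15 genes of the EGF receptor family and its ligands 12 were measured, 5 were at least 4-fold higher, 1 lower, and the median ratio was 0.78. The ligands Areg and Epgn (2.81), the receptors Erbb3 (3.28) and Erbb2 (2.01) and the sheddase Adam17 (2.05) were the higher ones, and the feedback inhibitor Errfi1, at 3438 and 752.0 CPM, the lower one (-2.18). Of 17 Notch genes 12 were measured, 0 were at least 4-fold higher, 1 lower, and the median ratio was 0.05, turning to -0.16 with median-of-ratios scaling. The receptors Notch1 and Notch3 had ratios of 1.09 each, the target Hey1 1.65, and the ligands Jag1 and Dll1, which basal cells present to neighbours, -1.35 and -1.63. Rbpj, the nuclear effector, had a ratio of -3.09, with 1 wild-type basal cell at 9471 CPM and detection in 11.4% and 5.88% of cells. Of 30 Wnt genes 27 were measured, 3 were at least 4-fold higher, 1 lower, and the median ratio was -0.08, turning to 0.58 without the top cell. The ligand Wnt5b (3.02), the agonist Rspo1 (2.69) and the inhibitor Nkd1 (2.10) were the higher ones, the secreted antagonist Sfrp1 (-2.61) was the lower one, and Lgr5, a receptor of R-spondins, was at 270.0 and 98.08 CPM. Of 20 TNF and NF-kB genes 19 were measured, 3 were at least 4-fold higher, 0 lower, and the median ratio was 0.84. These were Tnf itself (2.81), its induced gene Tnfaip2 (3.98) and the NF-kB subunit Relb (2.37), while the receptor Tnfrsf1a (-0.33) was below 0.

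Of 25 genes of DNA replication and mitosis 21 were measured, 9 were at least 4-fold higher in hybrid cells and 0 lower, with a median ratio of 1.91, which was 0.03 in the libraries of many cells described last. Cdk1 was at 47.64 CPM in hybrid cells and had no read in wild-type basal cells, and Mki67, a marker of cycling cells, was at 43.24 and 0.43 CPM. At least 3 of the 25 genes were detected in 30 of 85 hybrid cells (35.3%, 25.2 to 46.4%), in 1 of 44 wild-type basal cells (2.27%, 0.0575 to 12%) and in 28.9% of luminal cells after ablation. Pcna, a replication factor that is also a p53 target, had a ratio of -1.26, and Ccne1, a cyclin of S-phase entry, -0.65. Of 17 interferon-stimulated genes 13 were measured, 3 were at least 4-fold higher (Bst2, Rtp4 and Ifi44), 0 lower, and the median ratio was 1.11. Of 16 p53 target genes 15 were measured and 0 passed 4-fold in either direction, with a median ratio of -0.44, Cdkn1a at -1.98 and Bax at 1.99. Immediate early and heat-shock genes, which respond to tissue dissociation, had a median ratio of -0.68 with 0 of 18 past 4-fold. Fos ranged from 54.6 to 27014 CPM over wild-type basal cells (median 5289) and from 10.7 to 15869 CPM over hybrid cells (median 2155). Of 17 mesenchymal genes 10 were measured, 0 were at least 4-fold higher and 2 lower, Thbs1 and Ccn2 (-3.30). Ccn1 of the same list had a ratio of 1.22. Of 14 genes associated with progenitors 11 were measured, 0 were at least 4-fold higher and 1, Tspan8, lower. Of 19 wound and squamous genes 12 were measured. Among them 1, Ly6d (3.44), was at least 4-fold higher, against 5.99% of all measured genes. Of 6 sort antigen genes 4 were measured and 0 passed 4-fold, with a median ratio of 0.10 that became -0.33 with median-of-ratios scaling. Of 13 genes encoded in mitochondria 7 were measured, 0 passed 4-fold, and the median ratio was 0.01.

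Markers of other cells that could have passed the sort differed by type, with a median of 0 per cell for immune, endothelial, adipocyte and erythroid markers in both groups. Of 12 immune markers 2 were measured and 0 passed 4-fold, the sum per cell was 0 to 7.42 CPM in wild-type basal and 0 to 990 CPM in hybrid cells (median 0 in both), and Ms4a1, Adgre1 and Fcer1g had no read in either. Endothelial markers summed to 0 to 5.01 and 0 to 1294 CPM per cell, with 1 of 8 measured (Vwf, 1.94) and Cdh5, Tek and Emcn at 0 in both. Fibroblast markers summed to 3.17 to 6818 CPM (median 41.7) and 0 to 3952 CPM (median 394), with 5 of 8 measured, 0 past 4-fold and Lum at 0 in both. Dcn, which encodes decorin, made up most of that sum, at 812.6 and 472.7 CPM. Pericyte markers summed to 0 to 408 and 0 to 148 CPM, adipocyte markers to 0 to 187 and 0 to 358 CPM with Adipoq, Plin1, Cidec and Retn at 0, skin markers to 0 to 63.9 and 0 to 2851 CPM, and Schwann cell markers to 0 to 1054 and 0 to 2630 CPM. Of the skin markers 1 of 7, Dmkn, was at least 4-fold higher (2.97). Of 5 erythroid markers 3 were at least 4-fold higher, and the sum reached 152684 CPM in 1 hybrid cell, while the median was 0 in both groups and the detection of Hbb-bs 2.35% of hybrid cells. Whether these reads had a part in the differences above was not tested.

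Libraries of many cells, 1 for each group, gave a second reading of cells with the same labels. The labels do not give their cell numbers, or whether they came from the same sort or animals as the single cells. The hybrid library held 2474838 reads and the wild-type basal library 2824040. Of the 15 named higher genes 14 had the same sign there, Anxa3 being the exception (-0.04), and of the 10 named lower genes 7, without Cebpb, Fstl3 and Tpm3-rs7. Over all genes at least 4-fold higher 529 of 665 (79.5%) kept their sign, over all genes at least 4-fold lower 80 of 177 (45.2%), and over all measured genes 56.1%. Luminal keratins had a median ratio of 4.40 and contractile genes of -0.04. Krt14 and Krt17 were farther apart than in single cells, with ratios of -3.05 and -3.73. Krt5 turned from 0.22 in single cells to -1.82, and Trp63 was higher in the hybrid library, at 1.32. Basal keratins had a median ratio of -1.37 there, with 2 of the 6 measured at least 4-fold lower and 1 higher. Cell cycle genes had a median ratio of 0.03 and interferon-stimulated genes of 0.00 in these libraries, against 0.45 over all genes.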

How the data were processed

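Whole-number read counts were taken from the deposited table (genes by wells), which the authors left unnormalized, as its values show. Tools named without roles in the submitters' processing notes are cutadapt 1.13, STAR 2.5.2b, HTSeq 0.6.0 and Seurat, with genome GRCm38. Symbols come from GENCODE M21 (49326 of 49585 gene IDs). The 92 spike-in rows held 11 reads and were not used. Kept wells held at least 100000 reads, 1000 genes and at most 20% mitochondrial reads.

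Reads were summed per group and given as CPM. 3 reads of a group equal 0.0650 CPM in wild-type basal and 0.0313 CPM in hybrid cells. No test was possible with 1 sample a group, so a call means 4-fold. Named genes were the 15 largest and 15 smallest ratios (10 smallest existed) with at least 50 CPM, 25% detecting cells and a 20-point gap, a set of reference keratins, regulators and sort antigens, and up to 4 genes per list. Beyond these, members of the lists are named for their role. The members and the 31 lists were chosen with earlier results of these data known. Sequences are RefSeq promoters. Alternatives used edgeR 4.0.16 (TMM) and DESeq2 1.42.0 (size factors) for scaling only. The scripts were tested on simulated data. Values of 2 genes are not reported here.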

Additional observations from a re-analysis of the deposited data

How the results depend on the processing

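The count of genes at least 4-fold higher, 665, was 442 with median-of-ratios scaling, 2484 with 1 CPM added, 1069 without the top cell of each gene and 2143 in libraries of many cells. The count of genes at least 4-fold lower, 177, was 294 with TMM scaling, 373 with median-of-ratios scaling, 549 with 1 CPM added, 55 without the top cell of each gene and 679 in libraries of many cells. Without the top cell 9508 genes were measured. The cause was not tested. Of the 177 lower genes 43 were at least 4-fold lower in libraries of many cells, and of the 665 higher genes 320 were at least 4-fold higher there. Cell filters, equal weights per cell, no abundance filter, thinning before summing and subtraction of negative-well reads (the last 2 chosen after seeing the data) left both counts within 1.5 times.

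The share of hybrid cells detecting Krt14 and Krt18 was 100% at 1 read, 77.6% at 20 reads and 100% without thinning, and that of wild-type basal cells 79.5%, 20.5% and 95.5%. The luminal score difference of 1.73 was 2.80 with 1 CPM added. Anxa3 (-0.04) and Trp63 (1.32), both 4-fold calls in single cells, turned direction in libraries of many cells. Krt5, Cebpb, Fstl3 and Tpm3-rs7 were among the genes without a 4-fold call that also changed sign there. No other of the 38 named genes followed through the alternatives turned from a 4-fold call. No paired analysis was possible because the labels give no replicate numbers that pair wells and no test was made. Depth limits genes near the level of 3 reads, and counting intervals do not cover differences between animals.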
